A study of Macaca mulatta with 18 samples.

Results

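The comparison of Chinese with Indian origin in the cerebellum (CER) covered 13874 genes of the rhesus macaque out of 30246 listed for that region. A gene was taken when the deposited Cuffdiff table marked its row OK (16072 rows) and when it reached 1 FPKM or more in either origin. FPKM is a read count scaled for transcript length and for the size of the library, and the ratio used was log2(Chinese FPKM / Indian FPKM), so that a positive value is a higher level in Chinese-origin monkeys. Another 744 genes passed both conditions but were listed at 0 in one origin and have no ratio.

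The tissue came from 3 Chinese-origin monkeys, aged 10.5, 11.5 and 11 years, and 3 Indian-origin monkeys, aged 7.5, 15 and 16 years. All were adults on the same stock diet with added fruits and vegetables, with 2 females and 1 male in each. Indian-origin animals were native to the primate centre and Chinese-origin animals had spent their last 3 years in it, so origin, early life and the spread of ages cannot be told apart. The series holds 18 samples, since prefrontal cortex (PFC) and striatum (STR) of the same 6 animals were sequenced too. Values of the 3 animals of an origin were pooled by the authors into 1 FPKM per gene, so no value below has a replicate error, no test between origins was possible, and a single animal could set any of the ratios. The number of reads behind each value is not in the tables, and counting error is therefore unknown.

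The cerebellum is built mainly of granule cells, small glutamatergic neurons that drive the GABAergic Purkinje cells, with Bergmann glia, interneurons, myelinated tracts and vessels around them. It lies against the hindmost ventricle of the brain, whose choroid plexus is a secretory epithelium that makes cerebrospinal fluid and exports transthyretin, a carrier of thyroid hormone and retinol. Rhesus macaques of Chinese and Indian descent are genetically distinct populations that are both used as models in nutrition and infection research, and the study asked whether the brain handles carotenoids and fatty acids differently in them.

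The typical gene was nearly level between origins. The median log2 ratio over the 13874 genes was 0.10, and 71.2% of the genes had a ratio above 0. The middle part of the distribution was narrow, with quartiles at -0.02 and 0.23, and 90.3% of genes lay within 1.5-fold (0.58 on the log2 scale) of the median. A gene is counted below as higher or lower when its ratio was at least 1.5-fold above or below that median. By this count 676 genes, or 4.87%, were higher in Chinese-origin CER and 673, or 4.85%, were lower. Without subtraction of the median the same fold gave 856 higher and 534 lower genes.

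The counted share depended on the level of a gene and on the kind of RNA. Among 1172 genes with a higher FPKM between 1 and 2, 14.1% were higher and 14.6% lower. Among 5902 genes between 10 and 50 FPKM, the shares were 2.83% and 2.93%. They were wider again among the 122 genes at 1000 FPKM or more, with 8.2% higher and 16.4% lower. These 122 include genes of the mitochondrial genome, which are described below. Small RNAs (spliceosomal, nucleolar, Y and 5S RNAs and microRNA precursors), most of which have short loci and no poly(A) tail, made up 844 of the genes, and 26.7% of them were higher and 21.6% lower. For the 10700 genes with a symbol that are not small RNAs, the background was 2.6% higher and 2.97% lower. This pair covers all levels and is given beside the gene lists that follow. It may be too small at low levels, as 8.33% of the 1812 genes between 2 and 5 FPKM were higher and 7.84% lower. A gene under 1 FPKM in 1 origin entered the comparison only through the other, so its direction is set by the filter.

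**Figure D1:**
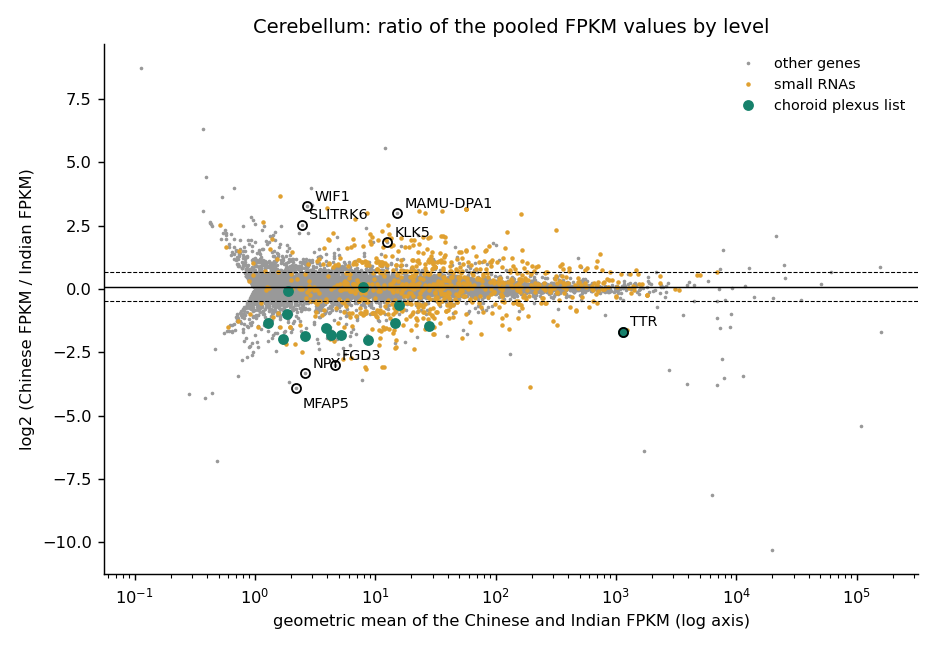
Log2 ratio of the Chinese over the Indian FPKM (vertical axis) against the geometric mean of both FPKM values (horizontal log axis) for each of the 13874 genes in CER. Small RNAs are orange, the choroid plexus list green and named genes circled. The solid line is the median of 0.10 and the dashed lines lie 1.5-fold from it. Most genes lie between the dashed lines, and the choroid plexus genes sit below them with 2 exceptions.

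The tissue carried the markers of cerebellum in both origins. GABRA6, the granule cell GABA-A receptor subunit, had 572 FPKM in Chinese-origin and 541 FPKM in Indian-origin CER, and was under 1 FPKM in PFC and STR. The tables of the 3 regions were normalized separately, so levels across them are approximate. The hindbrain gene HOXA2, which marks tissue behind the cerebellum, was near 0, at 0.0473 FPKM in Chinese-origin and 0.0974 FPKM in Indian-origin CER.

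The gene group with the lowest ratios was the choroid plexus list. Of its 20 genes, 14 had a ratio, 12 of these were lower in Chinese-origin CER and none was higher, against 2.97% and 2.6% among named genes. The median log2 ratio of the list was -1.50, beside 0.10 over all genes. Transthyretin (TTR, ENSMMUG00000016673, chr18:24511948-24519260 in mmul1) had 640 FPKM in Chinese-origin and 2060 FPKM in Indian-origin CER, a 3.22-fold lower level. It was the most abundant member by far, and the list summed to 704 FPKM in Chinese-origin CER, against 2213 FPKM in Indian-origin CER.

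The other members were much less abundant than TTR, and their ratios ran from -2.00 to 0.08. PRLR, the prolactin receptor, had 4.32 FPKM in Chinese-origin and 17.3 FPKM in Indian-origin CER (log2 ratio -2.00). CLIC6, an intracellular chloride channel protein, had 0.869 FPKM in Chinese-origin and 3.41 FPKM in Indian-origin CER (log2 ratio -1.97). KL, which encodes the FGF23 co-receptor klotho, had 1.37 FPKM in Chinese-origin and 4.99 FPKM in Indian-origin CER (log2 ratio -1.87). CLIC6 and KL were under 5 FPKM in both origins, and CLIC6 was under 1 FPKM in Chinese origin.

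The serotonin receptor gene HTR2C had 2.74 FPKM in Chinese-origin and 9.72 FPKM in Indian-origin CER (log2 ratio -1.83). The folate receptor gene FOLR1 had 2.31 FPKM in Chinese-origin and 8.06 FPKM in Indian-origin CER (log2 ratio -1.80). The sulfate transporter gene SLC13A4 had 9.1 FPKM in Chinese-origin and 23.2 FPKM in Indian-origin CER (log2 ratio -1.35). ECRG4, a secreted peptide precursor of this epithelium, had 16.9 FPKM in Chinese-origin and 46.7 FPKM in Indian-origin CER (log2 ratio -1.46). The potassium channel gene KCNJ13 (-1.53), the tight junction gene CLDN2 (-1.36), WFIKKN2 (-0.99) and OTX2 (-0.62), a transcription factor needed for choroid plexus formation, were lower as well. HTR2C, KCNJ13 and CLDN2 lie in annotated loci that hold several overlapping genes.

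The 2 members that were not counted were KCNE2, with 1.85 FPKM in Chinese-origin and 1.95 FPKM in Indian-origin CER, and the bicarbonate transporter gene SLC4A5, with 8.18 FPKM in Chinese-origin and 7.74 FPKM in Indian-origin CER. Of the 6 members with no ratio, AQP1 and F5 were not found under these names, and the rest were under 1 FPKM in both origins. Genes of motile cilia mark the ependyma that also lines the ventricle. Of the 7 with a ratio 1 was lower (SPAG6), against 2.97% among named genes. SPAG6 passed the filter through Indian origin alone, so its direction is set by the filter. The median of the 7 was 0.03, and their summed FPKM was 40.3 in each origin. CAPS made up most of that sum, at 24.4 FPKM in Chinese-origin and 23.9 FPKM in Indian-origin CER. Without a ratio, FOXJ1, DNAI1, DNAH9, CCDC153, TEKT1 and RIBC2 had lower values in Chinese origin, and DNAH11, DNAI2 and CFAP52 higher ones. Of these, only FOXJ1 reached 1 FPKM. In tissue of this kind, fewer cells of a type and less RNA per cell cannot be told apart.

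**Figure D2:**
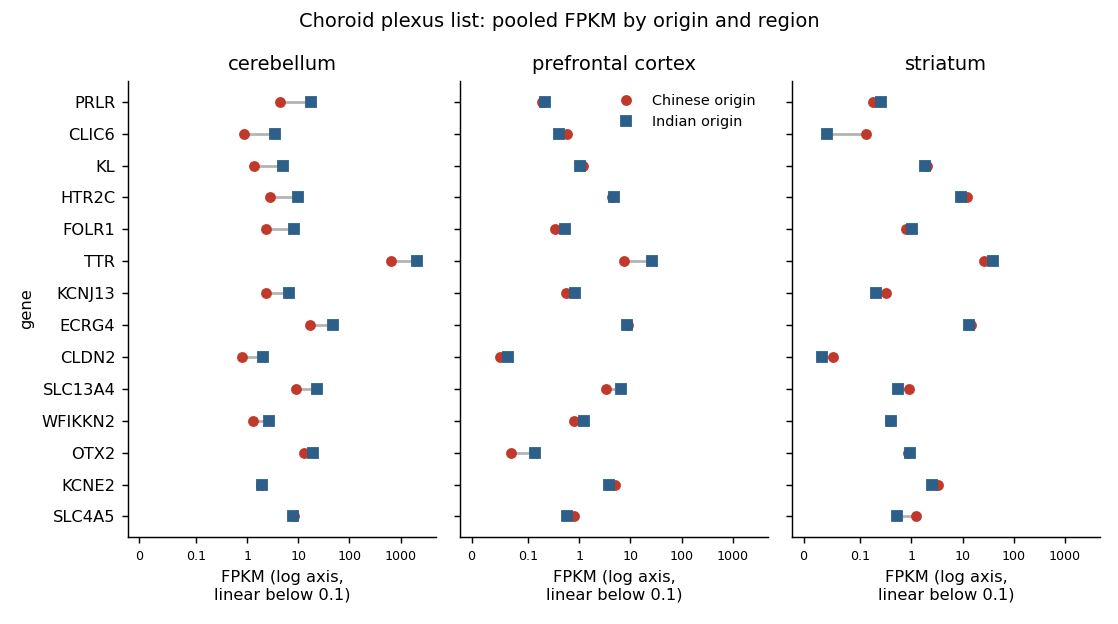
FPKM (horizontal axis, logarithmic and linear below 0.1) of the 14 choroid plexus genes with a ratio in CER, in CER, PFC and STR, with Chinese origin as red circles and Indian origin as blue squares. In CER, the Chinese-origin value is the lower one for all but SLC4A5, and TTR is the most abundant gene at 640 FPKM in Chinese and 2060 FPKM in Indian origin.

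Most of these genes were less abundant in the other regions of the same 6 monkeys. In PFC, 8 of the list had a ratio and 3 were counted as lower (background 4.01%), and in STR 2 of 8 were lower (background 4.04%) and 2 higher (background 6.57%). None of the 8 was counted as higher in PFC (background 3.45%). TTR had 7.35 FPKM in Chinese-origin and 26.3 FPKM in Indian-origin PFC, and 25.8 FPKM in Chinese-origin and 40.1 FPKM in Indian-origin STR. ECRG4 had 8.86 FPKM in Chinese-origin and 8.69 FPKM in Indian-origin PFC, and 14.6 FPKM in Chinese-origin and 13.6 FPKM in Indian-origin STR. PRLR was at 0.258 FPKM or less in either origin in both regions. The 3 regions come from the same animals and are not independent.

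Further lists held genes that were counted as lower besides the choroid plexus genes. CP, which encodes the copper-carrying ferroxidase ceruloplasmin, had 1.95 FPKM in Chinese-origin and 4.88 FPKM in Indian-origin CER. Of 12 complement and acute phase genes it alone was counted as lower (2.97% among named genes), and 1 was higher (2.6%). SOD3, the extracellular superoxide dismutase, had 7.02 FPKM in Chinese-origin and 16.7 FPKM in Indian-origin CER. It was counted as lower, against 2.97% among named genes. The other 17 antioxidant genes with a ratio lay between -0.32 and 0.40 and none was counted. Among 13 meningeal and fibroblast genes 4 were lower (SLC22A6, FMOD, ISLR and ALDH1A2), each under 3 FPKM, against 2.97% among named genes. FMOD, ISLR and ALDH1A2 passed the filter through Indian origin alone. With 1 or more FPKM in both origins 1 gene was lower, and with 5 or more FPKM in either origin or at a 2-fold mark none was. The most abundant gene of that list, the prostaglandin D synthase gene PTGDS, had 964 FPKM in Chinese-origin and 1234 FPKM in Indian-origin CER (log2 ratio -0.36, not counted). OGN and DCN, proteoglycan genes of fibroblasts, lay at -0.01 and 0.01, and the median of the list was -0.12. The part of the choroid plexus genes in these values was not tested.

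The resident neurons and glia of the cerebellum were close to level. None of the 13 granule cell genes was counted, and their ratios ran from -0.09 (ZIC2) to 0.32 (CBLN1, a secreted organizer of the parallel fibre synapse). None of the 13 Purkinje cell genes was counted either, with PCP2 lowest at -0.32 and the parvalbumin gene PVALB at 2473 FPKM in Chinese-origin and 2722 FPKM in Indian-origin CER. The 14 genes of inhibitory interneurons and unipolar brush cells, the 15 of astrocytes and Bergmann glia, the 9 of oligodendrocyte precursors, the 14 of microglia and the 9 of pericytes and smooth muscle also had no counted member. Their medians lay between 0.01 and 0.18.

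Myelin genes had a single exception. OPALIN, a transmembrane protein of mature oligodendrocytes, had 41.1 FPKM in Chinese-origin and 24.1 FPKM in Indian-origin CER (log2 ratio 0.77). The other 19 of the 20 genes lay between -0.20 and 0.44, among them MBP, the myelin basic protein gene, with 2195 FPKM in Chinese-origin and 2479 FPKM in Indian-origin CER.

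Endothelial genes lay above the median of all genes more often than not. Of 16 genes, 13 had a ratio above it and the median of the list was 0.40, but only SLC38A5, an amino acid transporter of the blood-brain barrier, was counted as higher, with 16.7 FPKM in Chinese-origin and 9.28 FPKM in Indian-origin CER. CLDN5, the tight junction protein of brain vessels, had 18.4 FPKM in Chinese-origin and 13.6 FPKM in Indian-origin CER (log2 ratio 0.44). KDR, a VEGF receptor, had the lowest ratio of the list at -0.46.

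**Figure D3:**
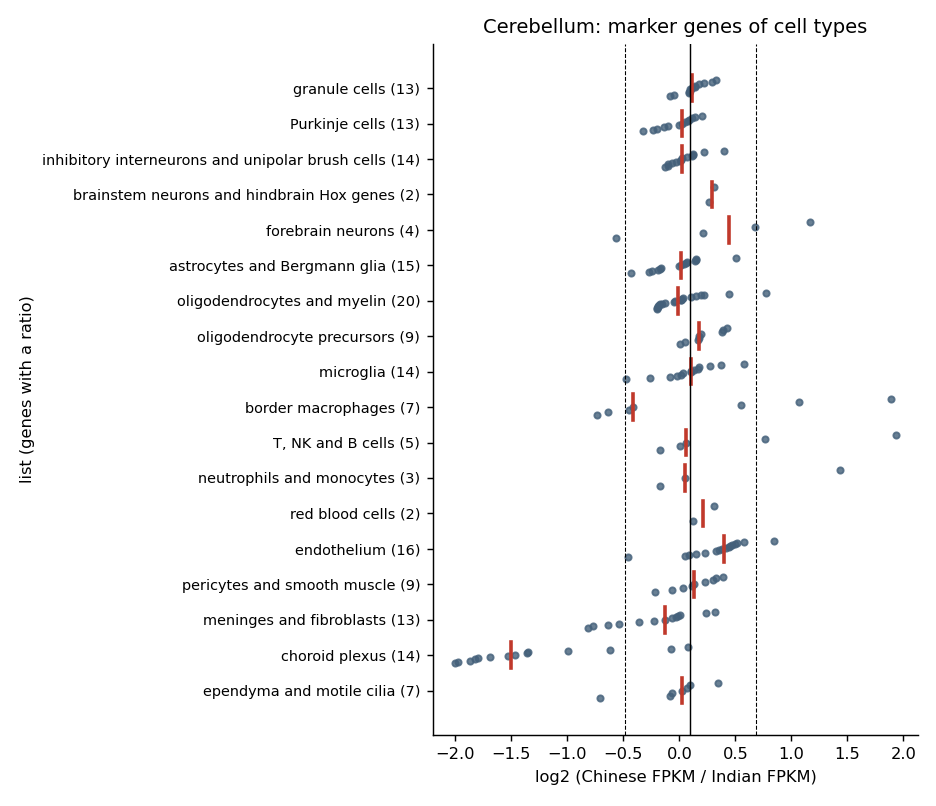
Log2 ratio of the Chinese over the Indian FPKM for each marker gene (dots) of 18 cell type lists in CER, with the number of genes in brackets and the list's median as a red bar. The solid line is the median over all genes (0.10) and the dashed lines lie 1.5-fold from it. The choroid plexus list has its median at -1.50, outside the dashed lines, and the neuronal and glial lists have theirs inside.

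Apart from small RNAs, the genes with the lowest ratios at 5 FPKM or more in the higher origin included several that are not choroid plexus markers. This selection of 15 genes a direction was made after the values were seen, since small RNAs took 9 of 15 lower and 12 of 15 higher places when they were kept. MFAP5, a microfibril protein of connective tissue, had 0.564 FPKM in Chinese-origin and 8.5 FPKM in Indian-origin CER (log2 ratio -3.91), the lowest of them. PTGFR, the receptor of prostaglandin F2-alpha, had 1.5 FPKM in Chinese-origin and 7.81 FPKM in Indian-origin CER (log2 ratio -2.38). NDST4, an enzyme of heparan sulfate synthesis, had 2.46 FPKM in Chinese-origin and 9.55 FPKM in Indian-origin CER (log2 ratio -1.96). The same selection held TMEM196 (-2.20), the glutathione transferase gene GSTA3 (-1.97) and a locus of 129 bases listed as GNA11 (-2.10). MFAP5 and NDST4 were under 1 FPKM in both origins in PFC and STR.

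A second set of genes had low ratios in all 3 regions. FGD3, an exchange factor of the small GTPase CDC42, had 1.63 FPKM in Chinese-origin and 13.1 FPKM in Indian-origin CER (log2 ratio -3.01), with log2 ratios of -3.65 in PFC and -3.01 in STR. The kinetochore gene CENPT had 2.03 FPKM in Chinese-origin and 12.1 FPKM in Indian-origin CER, with log2 ratios of -2.64 in PFC and -2.31 in STR. OLAH, a medium-chain fatty acyl thioesterase, had 2.38 FPKM in Chinese-origin and 12.04 FPKM in Indian-origin CER, and its log2 ratio was -2.05 in PFC and -2.20 in STR. CENPJ, a centriole assembly gene annotated as 2 neighbouring loci on chromosome 17, had log2 ratios of -1.85 and -1.79 in CER. In PFC its log2 ratios were -1.86 and -1.64, and in STR they were -1.52 and -1.37. All these values come from the same 6 animals.

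The genes with the highest ratios likewise held some with a like ratio in the other regions and some without. WIF1, a secreted inhibitor of Wnt signalling, had 8.43 FPKM in Chinese-origin and 0.879 FPKM in Indian-origin CER (log2 ratio 3.26), but 56.5 FPKM in Chinese-origin and 46.9 FPKM in Indian-origin PFC. SLITRK6, a transmembrane protein of neurite growth, had 5.96 FPKM in Chinese-origin and 1.02 FPKM in Indian-origin CER (log2 ratio 2.54), and 3.54 FPKM in Chinese-origin and 3.75 FPKM in Indian-origin STR. KLK5, a kallikrein serine protease, had 23.9 FPKM in Chinese-origin and 6.68 FPKM in Indian-origin CER (log2 ratio 1.84).

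In contrast, MMP21, a matrix metalloproteinase, had 5.92 FPKM in Chinese-origin and 1.28 FPKM in Indian-origin CER, and log2 ratios of 2.51 in PFC and 3.03 in STR. The lysosomal beta-glucuronidase gene GUSB had 18.3 FPKM in Chinese-origin and 4.99 FPKM in Indian-origin CER, with log2 ratios of 1.52 in PFC and 1.89 in STR. The remaining members of the 15 were LYPD1, GCNT2, KLK8, SMOC2, TMEM191C, ZNF215, CCDC13, C5orf45, TRIM21 and the class II gene MAMU-DPA1. Apart from MAMU-DPA1 at 3.00, their log2 ratios in CER lay between 1.27 and 1.44. Of these, GCNT2, KLK8, CCDC13 and MAMU-DPA1 were also at least 1.5-fold above the median of the region in PFC and STR.

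**Figure D4:**
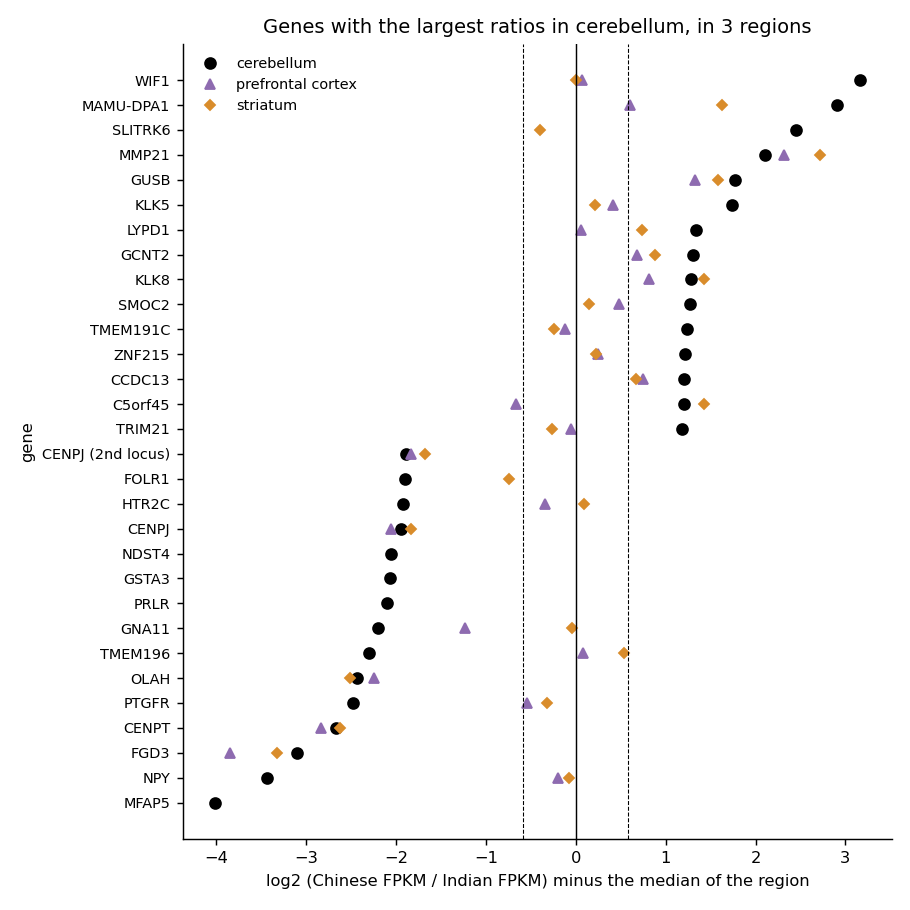
Log2 ratio of the Chinese over the Indian FPKM, less the median of its region, for the 15 highest and 15 lowest named genes of CER that are not small RNAs, with CER as black circles, PFC as purple triangles and STR as orange diamonds. A missing symbol means that the gene had no ratio in that region. FGD3, CENPT, OLAH, CENPJ, MMP21, GUSB, KLK8, GCNT2, CCDC13 and MAMU-DPA1 have all 3 symbols on one side outside the dashed 1.5-fold lines. WIF1 and NPY are among the genes with only that of CER there.

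Genes of antigen presentation by MHC class II were uneven. Of 9 genes with a ratio, 3 were higher in Chinese-origin CER (2.6% among named genes) and none was lower (2.97%), with a median of 0.37. MAMU-DPA1 (ENSMMUG00000019371), the DP alpha chain, had 43.2 FPKM in Chinese-origin and 5.40 FPKM in Indian-origin CER, a log2 ratio of 3.00. Its partner MAMU-DPB1, the DP beta chain in the same annotated locus (chr4:32780339-32807738, mmul1), had 32.0 FPKM in Chinese-origin and 19.9 FPKM in Indian-origin CER. The locus listed as MAMU-DQB1 had 12.8 FPKM in Chinese-origin and 6.09 FPKM in Indian-origin CER. All 3 loci hold more than one gene. MHC genes are polymorphic and have near-identical copies, so how reads of each origin aligned to a single reference genome bears on these values and was not tested.

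The class II chaperone gene CD74 had 37.0 FPKM in Chinese-origin and 25.7 FPKM in Indian-origin CER (log2 ratio 0.53), short of the 1.5-fold mark above the median. In PFC it had 35.8 FPKM in Chinese-origin and 17.0 FPKM in Indian-origin samples. HLA-DMB, part of the peptide exchange factor, lay on the other side with 6.4 FPKM in Chinese-origin and 8.56 FPKM in Indian-origin CER. No gene of the 11 in the MHC class I list was counted, and B2M, the class I light chain gene, had 577 FPKM in Chinese-origin and 463 FPKM in Indian-origin CER.

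Markers of immune cells other than microglia were low in level and mixed in direction. SIGLEC1, a sialic acid receptor of macrophages, had 2.36 FPKM in Chinese-origin and 0.638 FPKM in Indian-origin CER. It passed the filter through Chinese origin alone. The border macrophage genes LYVE1 and CD163 were lower in Chinese-origin CER at 0.858 and 0.693 FPKM, against 1.43 and 1.08 FPKM in Indian-origin CER. Both passed the filter through Indian origin alone, so the direction of these 3 genes is set by the filter. In all, 2 of 7 border macrophage genes were higher (2.6% among named genes) and 2 lower (2.97%). The other higher gene, CD4, had 4.32 FPKM in Chinese-origin and 2.06 FPKM in Indian-origin CER. Of 20 genes of T, NK and B cells 5 had a ratio, and 2 of these were higher (2.6% among named genes) and none lower (2.97%). CD8A, a T cell co-receptor gene, had 2.41 FPKM in Chinese-origin and 1.42 FPKM in Indian-origin CER, and CD8B had 1.47 FPKM in Chinese-origin and 0.385 FPKM in Indian-origin CER, so that it passed the filter through Chinese origin alone. CCL5 (0.01), JCHAIN (0.06) and XCL1 (-0.17) were not counted, and the T cell receptor complex genes CD3D, CD3E and CD3G were under 1 FPKM in both origins. Of 17 interferon-responsive genes 2 were higher (2.6% among named genes) and 1 lower (2.97%). IFI27, listed in the table as ISG12(C), had 45.3 FPKM in Chinese-origin and 21.1 FPKM in Indian-origin CER, and IFIT1 had 18.3 FPKM in Chinese-origin and 32.1 FPKM in Indian-origin CER.

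Most carotenoid and fatty acid genes considered by the study were level. Of 11 with a ratio, 1 was lower (2.97% among named genes) and none higher (2.6%), and the median was -0.00. RPE65 (ENSMMUG00000002752, chr1:71219759-71238883, mmul1), the retinoid isomerase of the visual cycle, had 0.789 FPKM in Chinese-origin and 1.91 FPKM in Indian-origin CER (log2 ratio -1.27). It was the gene counted as lower and passed the filter through Indian origin alone, so its direction is set by the filter. In PFC it had 1.76 FPKM in Chinese-origin and 2.25 FPKM in Indian-origin samples, and in STR 5.38 FPKM in Chinese-origin and 7.37 FPKM in Indian-origin samples. BCO2, the enzyme that cleaves carotenoids off centre, had 4.0 FPKM in Chinese-origin and 2.53 FPKM in Indian-origin CER (log2 ratio 0.66), just short of the mark. The desaturase genes FADS1 (0.26) and FADS2 (-0.06) and the elongase genes ELOVL2 (0.08), ELOVL4 (0.08) and ELOVL5 (-0.07) lay close to the median. SCARB1, a receptor for lipoproteins and carotenoids, had 21.8 FPKM in Chinese-origin and 19.7 FPKM in Indian-origin CER.

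The second list of the study, genes known to carry sequence variants between the 2 populations, had 19 genes with a ratio. Of these, 1 was higher (2.6% among named genes) and 1 lower (2.97%). CD4 (ENSMMUG00000013202, chr11:6967963-7001757, mmul1), the co-receptor of helper T cells that macrophages also carry, had 4.32 FPKM in Chinese-origin and 2.06 FPKM in Indian-origin CER (log2 ratio 1.06). It had 5.64 FPKM in Chinese-origin and 1.53 FPKM in Indian-origin PFC, and 12.01 FPKM in Chinese-origin and 3.35 FPKM in Indian-origin STR. The chemokine receptor gene CCR1 had 3.20 FPKM in Chinese-origin and 2.19 FPKM in Indian-origin CER (log2 ratio 0.55). Both lists come from the study itself and are not independent of it.

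RPE65 and CD4 are the counted genes of these lists for which the study also designed PCR primers, and the pairs are shown because they name the transcript stretches the authors chose to measure apart from sequencing. The PCR values were not analysed here. Each primer is given 5′ to 3′.
RPE65 forward: gatgcttacgtacgggcaat
RPE65 reverse: ttgtcggtaacctccactcc
CD4 forward: gaggtggaattgctggtgtt
CD4 reverse: agctgaggcacagagatggt
All 4 primers are 20 bases long, with 10 or 11 bases G or C.

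Neuropeptide genes were among the more variable lists. Of 18 with a ratio, 5 were lower (2.97% among named genes) and 2 higher (2.6%) in Chinese-origin CER, with a median of -0.23. Only 1 was lower among genes with 1 or more FPKM in both origins, and 2 with 5 or more FPKM in either origin or at a 2-fold mark. NPY (ENSMMUG00000009818, chr3:101970583-101976980, mmul1), the gene of neuropeptide Y, had 0.824 FPKM in Chinese-origin and 8.30 FPKM in Indian-origin CER (log2 ratio -3.33). NPY passed the filter through Indian origin alone. It is far more abundant in the forebrain, with 173 FPKM in each origin in PFC, and 477 FPKM in Chinese-origin and 404 FPKM in Indian-origin STR. PNOC, CALCA and CALCB were lower as well but did not exceed 2 FPKM in either origin, and TAC1, the substance P precursor gene, had 6.53 FPKM in Chinese-origin and 10.03 FPKM in Indian-origin CER.

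The 2 higher members were PDYN and POMC. PDYN, the dynorphin precursor gene, had 1.64 FPKM in Chinese-origin and 0.485 FPKM in Indian-origin CER. It passed the filter through Chinese origin alone, so its direction is set by the filter. POMC, the precursor of ACTH and beta-endorphin, had 3.09 FPKM in Chinese-origin and 1.10 FPKM in Indian-origin CER, and its log2 ratio was 2.21 in PFC and 1.97 in STR. Of 15 forebrain neuron markers 4 had a ratio in CER. NEUROD6 was higher at 3.06 FPKM in Chinese-origin and 1.37 FPKM in Indian-origin CER and NRGN was lower at 1.01 FPKM in Chinese-origin and 1.49 FPKM in Indian-origin CER. Whether forebrain RNA had a part in the peptide values was not tested.

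Retinoid genes were counted in both directions. RBP4, the plasma retinol carrier, had 3.21 FPKM in Chinese-origin and 0.680 FPKM in Indian-origin CER (log2 ratio 2.24), while its partner TTR was lower. LRAT, which esterifies retinol, was higher, at 1.03 FPKM in Chinese-origin and 0.586 FPKM in Indian-origin CER. The cellular retinoic acid-binding protein gene CRABP1 had 6.44 FPKM in Chinese-origin and 10.5 FPKM in Indian-origin CER, and CRABP2 had 2.95 FPKM in Chinese-origin and 4.52 FPKM in Indian-origin CER. In all, 4 of 18 retinoid genes were lower (2.97% among named genes) and 2 higher (2.6%). The 2 higher genes, RBP4 and LRAT, passed the filter through Chinese origin alone, so their direction is set by the filter. With 1 or more FPKM in both origins 3 genes were lower. The receptor genes RARA, RARB, RARG, RXRA and RXRG lay between -0.18 and 0.35.

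**Figure D5:**
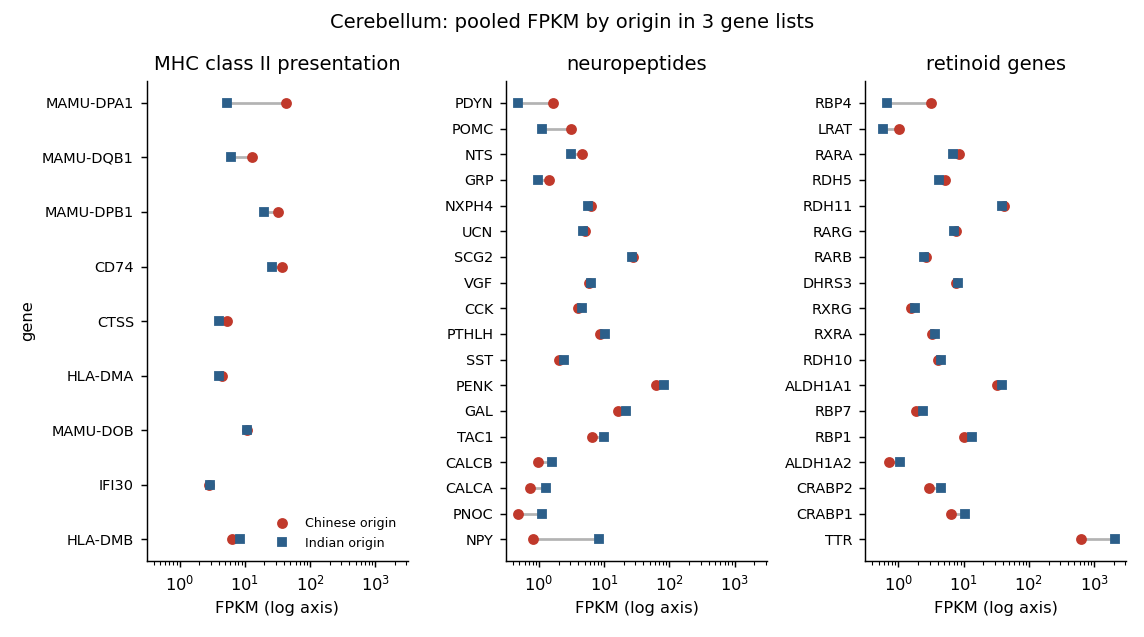
FPKM in CER (horizontal log axis) of the MHC class II, neuropeptide and retinoid genes with a ratio, with Chinese origin as red circles and Indian origin as blue squares, ordered by the ratio with the highest at the top. MAMU-DPA1 and RBP4 have the widest gaps towards Chinese origin in their panels, and NPY and TTR the widest towards Indian origin.

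Transcripts of the mitochondrial genome had large ratios that nuclear genes of the same respiratory complexes lacked. Of 6 mitochondrial messenger genes with a ratio, 4 were lower in Chinese-origin CER. The share lower was 2.97% among named genes and 16.4% among all genes at 1000 FPKM or more. The second share includes these 4 genes themselves, so it is not a separate background for them. The complex I genes ND1 and ND2 had 4272 and 4655 FPKM in Chinese-origin CER, against 12351 and 10248 FPKM in Indian-origin CER. MT-CYB, the cytochrome b gene, had 5256 FPKM in Chinese-origin and 14845 FPKM in Indian-origin CER. ND5 was lower (-0.70), whereas ND3 (0.11) and ND6 (0.32) were not counted. The other 7 mitochondrial messenger genes could not be used, because the table marks them as loci with too much data. None of 49 nuclear genes of oxidative phosphorylation was counted, and their median was 0.01.

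Ribosomal protein genes were level too. Of 65 with a ratio, 1 was lower, and the median was -0.01. The exception was a locus of 93 bases listed as RPL13A (chr7:108941800-108941892, mmul1), with 6453 FPKM in Chinese-origin and 12851 FPKM in Indian-origin CER. The multi-exon RPL13A locus on chromosome 19 had 371 FPKM in Chinese-origin and 366 FPKM in Indian-origin CER. RPL13A has near-identical copies in the genome, and reads may be split among them, so the value of the short locus is uncertain.

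Ratios of small RNAs were spread widely, and copies of one family could not be told apart. SNORD115, a brain-specific nucleolar RNA made from a long imprinted cluster, is listed at 66 loci, of which 32 had a ratio. The 4 highest ratios came from copies on chromosome 7 with exactly the same pair of values, 168 FPKM in Chinese-origin and 19.0 FPKM in Indian-origin CER (log2 ratio 3.14), while the copy with the highest level had 6056 FPKM in Chinese-origin and 4087 FPKM in Indian-origin CER (log2 ratio 0.57). SNORD34, a nucleolar RNA hosted within the RPL13A gene, had 50.4 FPKM in Chinese-origin and 736 FPKM in Indian-origin CER (log2 ratio -3.87). The other small RNAs among the 15 lowest ratios were SNORA47, SNORA9, ACA59, 2 loci of Y_RNA and 3 of 5S_rRNA, between -3.15 and -2.36. Those among the 15 highest, besides SNORD115, were SNORA74, snoU13, SNORD18, SNORA69 and 4 loci of Y_RNA, between 2.76 and 3.66.

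Genes of stress, metabolism and excitability were mostly not counted. None of 18 immediate early genes, 13 heat shock protein genes, 12 hypoxia-responsive genes, 17 circadian clock genes, 17 genes of fatty acid synthesis and transport or 20 genes of cholesterol synthesis was counted. The same held for 17 glutamate receptor genes, 19 potassium channel genes and 15 sodium, calcium and HCN channel genes. Of these lists, the sodium, calcium and HCN channels had the highest median, 0.26, with 13 of 15 genes above the median of all genes. ANGPTL4, an inhibitor of lipoprotein lipase, was the single counted gene among 17 glucocorticoid-responsive genes, with 1.95 FPKM in Chinese-origin and 2.89 FPKM in Indian-origin CER. The share lower was 2.97% among named genes. Among 15 GABA and glycine receptor genes, 1 was higher (2.6% among named genes) and 1 lower (2.97%). GABRG3 was higher at 1.44 FPKM in Chinese-origin and 0.838 FPKM in Indian-origin CER. It passed the filter through Chinese origin alone, so its direction is set by the filter. GABRE was lower at 2.52 FPKM in Chinese-origin and 4.44 FPKM in Indian-origin CER.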

How the data were processed

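Cerebellum of 3 Chinese-origin and 3 Indian-origin adult rhesus macaques was sequenced as single-end mRNA libraries. Per the methods and labels, the authors aligned reads with TopHat at default settings to the mmul1 genome and ran Cuffdiff (0.0.5 in the submitters' processing notes) on the 3 libraries of each origin. The deposited values are 1 FPKM per gene and origin, pooled over 3 animals, in 1 table for each region. The tables also hold the authors' own fold changes, test statistics and p- and q-values, which were not used. Loci are given as in the tables, with starts counted from 1.

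Rows with status OK and 1 FPKM or more in either origin were kept, and log2(Chinese FPKM / Indian FPKM) was taken with no pseudocount in Python 3.11.15, pandas 2.3.3 and numpy 2.4.6. With 1 pooled value per origin there is no depth, interval or test. A gene was counted as higher or lower at 1.5-fold or more from the median over all genes. In the striatum table, 1 corrupted row was left out, and 27 symbols per region that a spreadsheet had turned into dates were not used. Missing symbols of 749 rows were taken from the reference gene names by gene ID.

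The 42 gene lists were fixed by hand with earlier results of these data known, as were the members. The text names the 15 genes a direction with the largest log2 ratio at 5 FPKM or more in the higher origin, up to 4 members of each list farthest from the median with its most abundant members, and the genes of the study's lists. A repeat of the first rule without small RNAs was added after the values were seen. A locus whose symbol in the table differs from that in the reference kept the table's symbol, and 3212 genes share a locus with others. The functions were tested on simulated data.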

Additional observations from a re-analysis of the deposited data

Results flagged for a closer look

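Rows that the status mark kept out of the comparison held 7 named mitochondrial genes with a high value in Chinese-origin CER and a listed 0 in Indian-origin CER. The Chinese-origin values were 14933 FPKM for COXIII, 11866 FPKM for COXII, 8264 FPKM for ATP6, 7746 FPKM for ATP8, 6494 FPKM for COX1, 4608 FPKM for ND4 and 1128 FPKM for ND4L. All 7 carry the mark HIDATA, with which Cuffdiff skips loci holding too many fragments, so the listed 0 is not a measured level and no fold is given. All 7 also carry the mark and a listed 0 in Indian origin in PFC and STR, as do MT-CYB, ND1 and ND2 there. ATP6, ATP8, COX1 and COXIII are listed at 0 in Chinese origin too in those regions.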

How the results depend on the processing

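The median log2 ratio stayed between 0.09 and 0.10 under every alternative tried for it. The counts of higher and lower genes depended on the fold, the filter and the pseudocount: a 2-fold mark gave 267 higher and 308 lower genes, 5 or more FPKM in either origin gave 361 and 360, and a pseudocount of 0.1 gave 1035 and 1012, where genes listed at 0 have a ratio too. The choroid plexus count stayed between 8 and 14 lower genes under the alternatives tried, with 8 at 5 or more FPKM, 11 at 2-fold and 9 in loci of 1 gene only. Fewer MHC class II genes were higher at 2-fold (1) and in loci of 1 gene only (0). The lower neuropeptides numbered 3 with a pseudocount of 1, 1 with 1 or more FPKM in both origins, 2 with 5 or more FPKM and 2 at 2-fold. The lower meningeal genes numbered 1, 1, 0 and 0 in the same order, and the lower retinoid genes 2 with a pseudocount of 1, 2 with 5 or more FPKM and 1 at 2-fold. The lower mitochondrial genes were 0 by construction without the mitochondrial genome and 2 in loci of 1 gene only. Leaving out small RNAs, the mitochondrial genome or shared loci was chosen after seeing the data. A pseudocount of 1 moved the ratio of 16 of 224 named genes by over 1.5-fold, and no counted gene among them changed its direction under any alternative. No animal could be left out, because each value is pooled. No paired analysis was possible because the columns are pooled and carry no replicate numbers. Low levels limit most list members named under 2 FPKM.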

Other observations

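The 744 genes listed at 0 in one origin were split evenly, with 360 at 0 in Chinese-origin and 384 at 0 in Indian-origin CER. Of these, 586 were small RNAs, 148 had no symbol and 10 were other named genes. CRYAA, a lens chaperone gene, had 2.10 FPKM in Chinese-origin CER and was listed at 0 in Indian-origin CER, and ANKRD62 was listed at 0 in Chinese-origin CER and had 3.39 FPKM in Indian-origin CER.

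Chromosomes differed little in the median ratio, which ran from 0.08 on chromosome 13 to 0.11 on chromosome 10, with the X chromosome at 0.09. The 26 mitochondrial loci with a ratio, most of them short, had a median of -1.32, with 16 lower and 5 higher. Rows marked FAIL, for which Cuffdiff gave no usable estimate of the difference, numbered 2807 in CER, and 2448 of them were at 1 FPKM or more in either origin.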
